A study of Ovis aries and Bos taurus with 15 samples.

Results

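The 82 genes described here carry the symbol ZNF followed by digits alone, the naming root for zinc finger proteins. They were taken from the probe sets that the platform annotation pairs with a single gene symbol, and they lie on 108 probe sets, among 9155 named genes on 24016 probe sets tested. Of these, 37 had a mean log2 value of 5 or more over the 15 arrays and are described first, and 45 lay below that limit. The gene just inside it was ZNF35, at 5.01, and the gene just outside was ZNF329, at 4.94. Each gene is represented by its brightest probe set. A further 5 genes whose symbols end in a letter are not counted among the 82.

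RNA was measured on Affymetrix bovine arrays, 1 per sample, in 3 groups of 5. The bovine control group holds Bos taurus cells labelled BAEC, for which no treatment is stated. The ovine vehicle group holds sheep PAEC given DMSO, and the ovine GW9662 group holds sheep PAEC given 5 µM GW9662 for 24 h; only the study's title calls these cells pulmonary. GW9662 irreversibly blocks PPARγ, a nuclear receptor that activates genes of lipid handling. All cells were grown in DMEM with 10% FBS. The labels do not tie the replicates to separate cultures or animals, and the p-values reflect only how much these samples vary, which may be technical. The number of arrays limits the precision.

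A zinc finger is a short protein loop held in shape by a zinc ion. Most ZNF proteins carry an array of such fingers, each of which reads a few bases of DNA. A large vertebrate subfamily adds a KRAB domain, which binds the co-repressor TRIM28 and through it the histone methyltransferase SETDB1, and so silences chromatin, above all at transposable elements. ZNF is only a naming root, however, and the set also includes proteins whose fingers bind RNA or other proteins and that serve splicing, ribosome assembly, the mitotic spindle or promoter activation.

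Before any gene was considered, the groups differed in a measure of RNA quality, the 3′ over 5′ signal of control transcripts. Between species this measure may also carry the match of sheep RNA to bovine probes, which was not tested. The excess of 3′ over 5′ signal, averaged over 6 control transcripts, was 1.18 ± 0.085 (SD, n = 5) on the vehicle arrays, 0.956 ± 0.074 on the GW9662 arrays and 0.881 ± 0.043 on the bovine arrays. The vehicle arrays did not overlap either other group (two-sided exact permutation p = 0.00794 for each, the smallest that 5 against 5 arrays allow), whereas bovine and GW9662 arrays overlapped (exact permutation p = 0.111). Vehicle replicate 1 stood apart, with the highest such excess (1.3) and a mean over the 37 brighter ZNF genes of 6.167, against 6.378 to 6.471 on the other vehicle arrays. Of the endothelial markers, 9 of 10 were measured; their mean was 8.014 to 8.185 on bovine, 7.446 to 7.53 on vehicle and 7.42 to 7.662 on GW9662 arrays. VWF lay under 3, near the floor of the values, in every group, CLDN5 did so in both ovine groups and KDR in the vehicle group. All 5 epithelial markers lay under 3 in every group (array means 2.316 to 2.447), as did ACTA2, CNN1, DES and MYH11 of the 6 smooth muscle markers. TAGLN and SMTN, the other smooth muscle markers, lay under 3 in no group. Array means over all 6 were 3.896 to 4.058 in bovine, 3.261 to 3.476 in vehicle and 3.411 to 3.5 in GW9662 arrays. Between bovine and vehicle arrays, 2 of the 6 were higher in bovine (limma, adjusted p under 0.05), both by more than 1 and at most by 1.825. In the same comparison 1 was lower and 3 did not pass (50% passed, against 49.2% of all 9155 named genes). COL1A1, DCN, LUM and PDGFRA of the 6 fibroblast markers also lay under 3 throughout (array means over all 6, 5.155 to 5.304). COL1A2 and COL3A1, the other fibroblast markers, were bright in every group. Their means were 11.24 and 10.41 in bovine, 10.33 and 10.44 in vehicle and 10.36 and 10.55 in GW9662 arrays. Of 5 leukocyte markers measured only CD14, in the ovine groups, lay above 3 (array means 2.418 to 2.453 in bovine and 3.308 to 3.436 in ovine arrays). In bulk RNA, fewer cells of a type and less RNA per cell cannot be told apart.

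**Figure D1:**
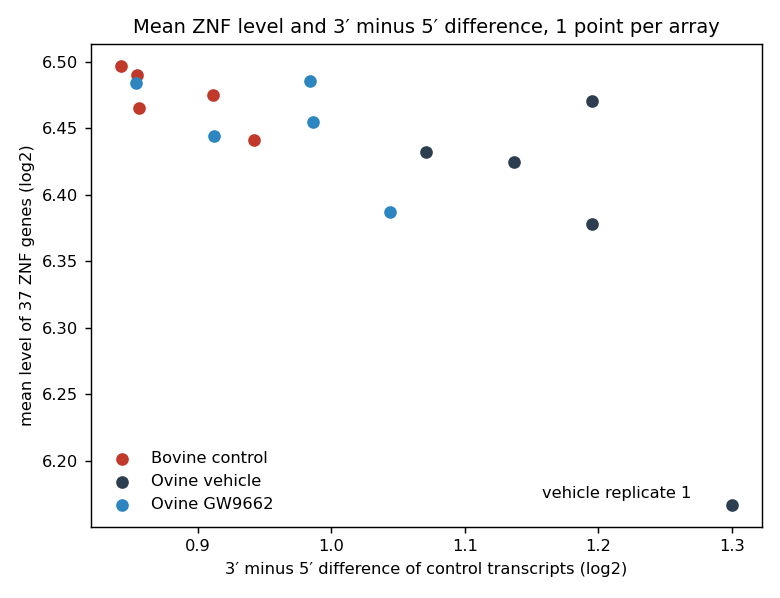
Mean log2 value of the 37 brighter ZNF genes on each array (vertical axis) against the 3′ minus 5′ log2 difference of 6 control transcripts on that array (horizontal axis), coloured by group, 5 arrays each. The vehicle arrays lie to the right of both other groups, and vehicle replicate 1 is lowest, at 6.167, while the bovine arrays lie between 6.441 and 6.497 and the GW9662 arrays between 6.387 and 6.486.

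The probe sets of ZNF genes were mostly of middle or low brightness, with a smaller share than among all genes both under 3 and above 7. Their median level was 4.62, against 5.73 over all 9155 named genes, from 1.98 for ZNF777 to 10.61 for ZNF706. Under 3 lay 20 genes (24.4% of the ZNF genes, against 30.8% of all genes). Between 3 and 5 lay 25 (30.5% against 13.5%), and between 5 and 7 lay 28 (34.1% against 18.2%). Between 7 and 9 lay 6 genes (7.32% against 20.5%), and 3 read 9 or more (3.66% against 17%). These are brightnesses of probe sets, which depend on the probes as well as on the RNA, and they rank no transcript against another.

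The 3 genes above 9 were ZNF706, which encodes a small protein with a single finger; ZNF638, an RNA-binding protein that works with the HUSH silencing complex; and ZNF521, a co-repressor of progenitor cells that recruits the NuRD complex. ZNF638 read 9.25, 9.15, 9.24, 9.18 and 9.29 on the bovine arrays, 8.93, 9.25, 9.35, 9.20 and 9.20 with vehicle and 9.21, 9.15, 9.28, 9.46 and 8.98 with GW9662. ZNF521 read 8.98, 9.35, 9.14, 9.01 and 9.21 on the bovine arrays, 8.90, 9.17, 9.30, 9.23 and 9.21 with vehicle and 9.25, 9.22, 8.89, 9.04 and 9.11 with GW9662. For both genes the 3 groups overlapped and neither comparison passed the test: ZNF638 differed by 0.035 between bovine and vehicle arrays (SE 0.0708, adjusted p = 0.687) and by 0.031 between GW9662 and vehicle (SE 0.1, adjusted p = 0.839). The differences of ZNF521 were -0.026 (SE 0.0909, adjusted p = 0.823) and -0.060 (SE 0.0898, adjusted p = 0.654). Such small differences had no stable sign: that of ZNF638 was negative in both comparisons without vehicle replicate 1 (-0.029 for bovine and -0.033 for GW9662), and that of ZNF521 between species was 0.0089 with arrays centred on their medians.

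**Figure D2:**
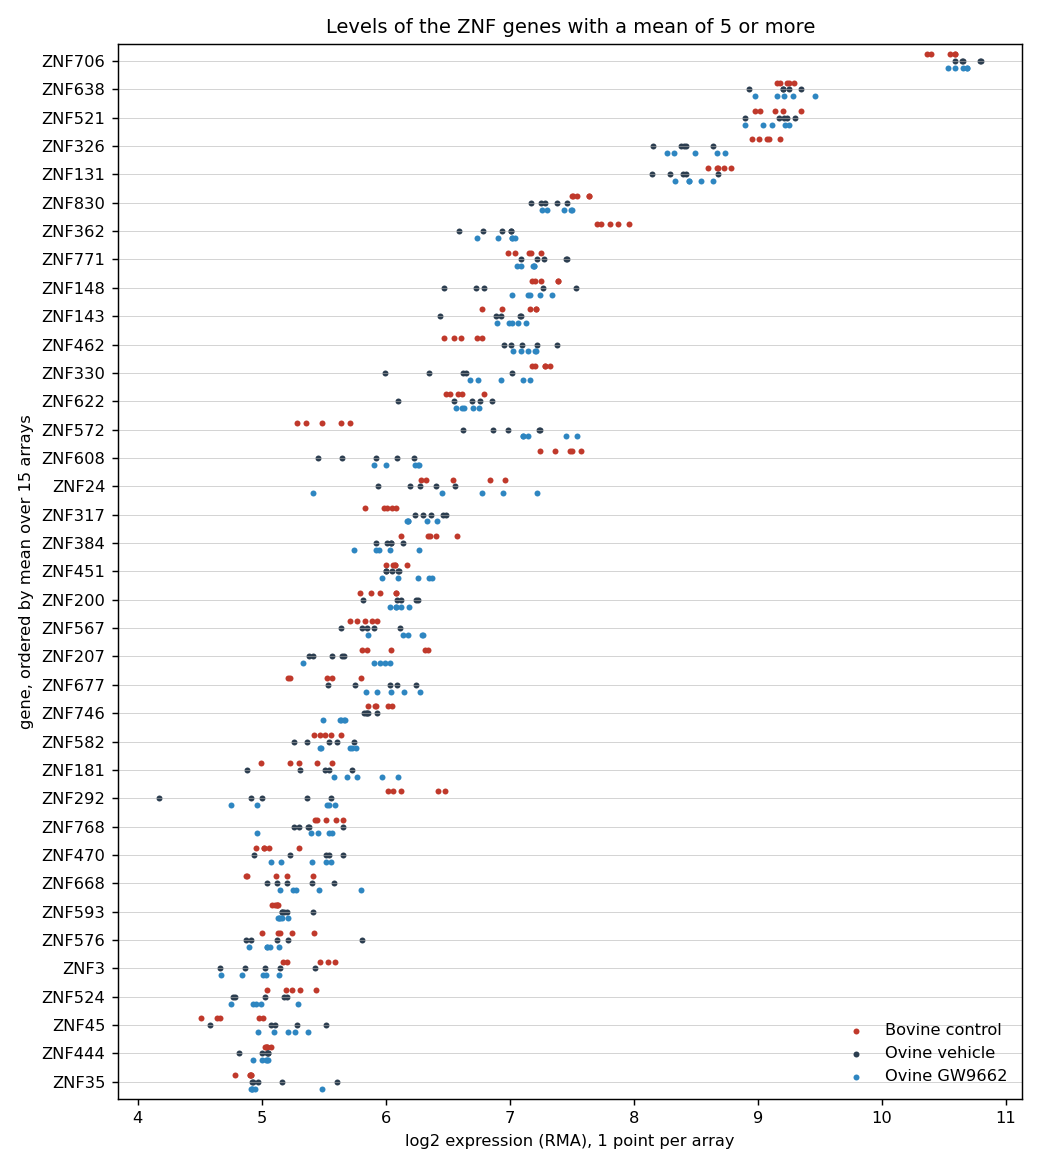
Log2 value on each array of the 37 ZNF genes with a mean of 5 or more, coloured by group (5 arrays per group). Genes are ordered by the mean over all 15 arrays, from ZNF706 at 10.61 to ZNF35 at 5.01.

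The first comparison asked which ZNF genes differed between sheep PAEC given GW9662 for 24 h and those given DMSO vehicle. Of the 37 brighter genes, 1 fell, none rose, and 36 did not pass the test (limma, adjusted p under 0.05 over all 24016 probe sets). The background was 16 of the 5101 named genes above the same limit, or 0.314% (0.196% higher and 0.118% lower). Before adjustment, 3 ZNF genes were higher and 1 lower at p under 0.05, that is 4 of 37, while 21.5% of the 5101 genes passed that looser limit. Across the 37 genes the differences ran from -0.24 to 0.43 on the log2 scale, with a median of 0.068 (0.014 for the 5101 genes), and 23 of 37 were positive (62.2%, against 54%). Without vehicle replicate 1 the median of the 37 was 0.0066 and no ZNF gene passed.

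The gene that fell was ZNF746, also known as PARIS, a KRAB repressor best known for silencing PPARGC1A, the gene of the mitochondrial co-activator PGC-1α, and for being degraded through parkin. With vehicle it read 5.85, 5.84, 5.84, 5.93 and 5.83, and with GW9662 it read 5.50, 5.66, 5.63, 5.64 and 5.67. Every treated array lay below every vehicle array, the only such separation among the 37 genes, which is 2.7% of them against 4.98% of the 5101. The difference was -0.24 (SE 0.0345, adjusted p = 0.0455). The bovine arrays, at 6.05, 5.86, 5.91, 6.02 and 5.92, overlapped the vehicle arrays and lay above the GW9662 arrays.

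The call of ZNF746 was close to the limit. Its difference stayed between -0.25 and -0.21 when each array was left out in turn, yet it passed in only 1 of these 10 fits, that without GW9662 replicate 1 (adjusted p = 0.0258). Without each of the other GW9662 arrays in order the adjusted p was 0.111, 0.0703, 0.11 and 0.0897, and without vehicle replicates 1 to 5 it was 0.0825, 0.129, 0.0632, 0.069 and 0.0899. With the 3′ minus 5′ measure in the model the difference was -0.23 with adjusted p = 0.732; that measure also separates the 2 ovine groups, so quality and treatment cannot be told apart in that fit.

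Among genes that did not pass, ZNF567 and ZNF181, KRAB-type zinc fingers, had the smallest p-values with a positive difference. ZNF567 read 5.81, 5.64, 5.91, 6.11 and 5.85 with vehicle and 5.86, 6.30, 6.18, 6.14 and 6.29 with GW9662 (difference 0.29, SE 0.105, adjusted p = 0.217). ZNF181 read 4.88, 5.51, 5.73, 5.31 and 5.54 with vehicle and 5.69, 5.77, 6.10, 5.97 and 5.59 with GW9662 (difference 0.43, SE 0.164, adjusted p = 0.218). In each gene the groups overlapped: a single GW9662 array of ZNF567 lay within the vehicle range, and for ZNF181 the highest vehicle array exceeded 2 of the treated arrays.

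ZNF207 and ZNF330 belong to the RNA and ribosome group. ZNF207, or BuGZ, chaperones the checkpoint protein BUB3 to kinetochores and also takes part in splicing. It read 5.42, 5.64, 5.56, 5.67 and 5.38 with vehicle and 5.95, 6.03, 5.90, 5.33 and 5.99 with GW9662 (difference 0.31, SE 0.135, adjusted p = 0.232). So 4 treated arrays lay above all vehicle arrays, and the remaining one lay below them. ZNF330, a nucleolar protein, read 5.99, 6.35, 6.62, 6.64 and 7.02 with vehicle and 6.74, 6.67, 7.16, 7.11 and 6.93 with GW9662 (difference 0.40, SE 0.185, adjusted p = 0.242). The spread of its vehicle arrays spanned much of the treated range.

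ZNF451, a SUMO ligase, differed by 0.16 (SE 0.0754, adjusted p = 0.247), and ZNF572 by 0.28 (SE 0.143, adjusted p = 0.258). In the other direction, ZNF771 read 7.22, 7.46, 7.45, 7.27 and 7.09 with vehicle and 7.09, 7.19, 7.20, 7.19 and 7.06 with GW9662 (difference -0.15, SE 0.0733, adjusted p = 0.249), so that the groups overlapped at their edges. The differences of ZNF317 (-0.11, SE 0.065), ZNF593 (-0.065, SE 0.0475), ZNF706 (-0.067, SE 0.0494) and ZNF576 (-0.15, SE 0.163) had adjusted p-values between 0.295 and 0.535. For ZNF576 the sign rested on vehicle replicate 1, which read 5.81 against 4.88 to 5.21 on the other vehicle arrays, and without it the difference was 0.0066.

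**Figure D3:**
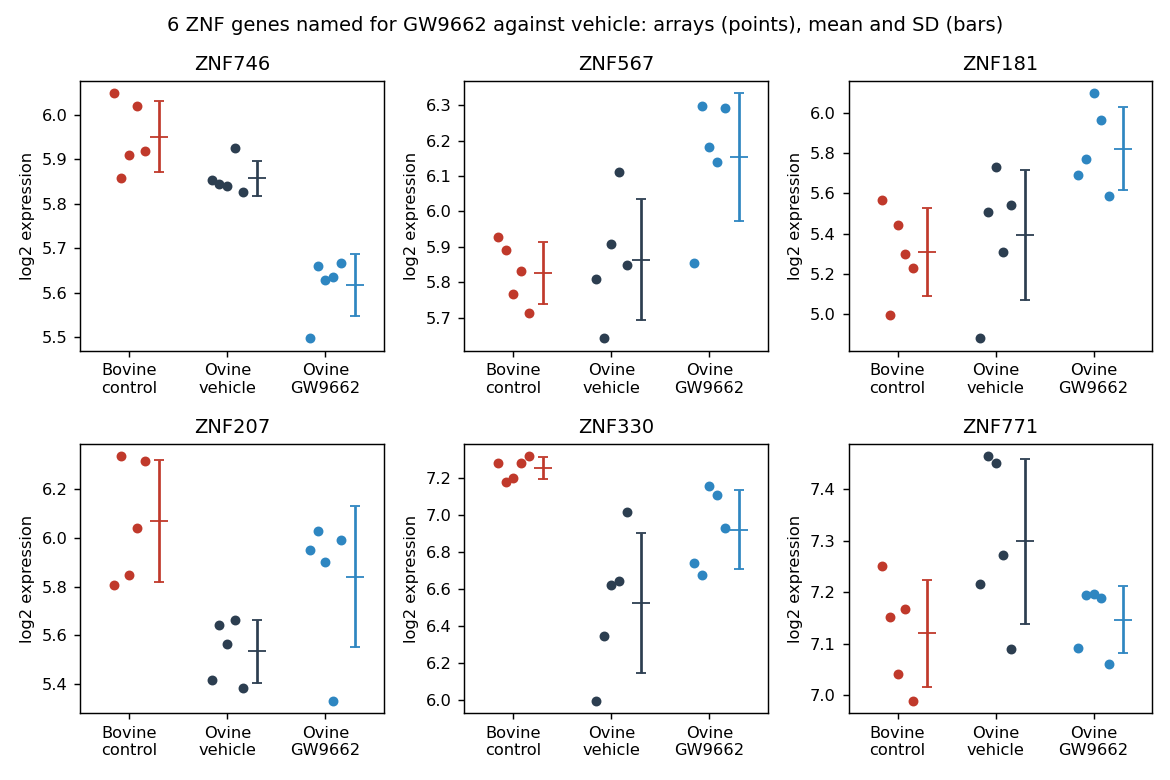
Log2 values on each array of 6 ZNF genes, in panels for ZNF746, ZNF567, ZNF181, ZNF207, ZNF330 and ZNF771, by group, with points for arrays and bars for the mean and SD of 5. In ZNF746 the GW9662 arrays (5.50 to 5.67) lie below all vehicle arrays (5.83 to 5.93), while in the other 5 panels the vehicle and GW9662 points overlap.

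The second comparison set the bovine control arrays against the ovine vehicle arrays. Species, source of the cells and the match of sheep RNA to bovine probes differ together here and cannot be told apart. The vehicle cells were also given DMSO, whereas no treatment is stated for the bovine cells. A low ovine value is therefore a low signal and not necessarily less RNA. Of the 37 brighter ZNF genes, 9 were higher in bovine cells, 5 were lower and 23 did not pass; that is 37.8%, against a background of 58% among the 5101 genes (33.1% higher and 24.9% lower). The groups did not overlap for 13 of the 37 (35.1%, against 47%). The median difference was 0.022 (0.050 for the 5101 genes), the median size regardless of sign was 0.255 (0.26), and 3 genes passed with a difference over 1 on the log2 scale (8.11%, against 8.94%). Centring each array on its median changed the split to 10 higher and 3 lower, a second quantile normalisation to 9 and 9, and leaving out vehicle replicate 1 to 9 and 8. With the 3′ minus 5′ measure in the model only ZNF462 passed (-1.10, adjusted p = 0.00137, against -0.50 without that measure), and 14.5% of the 5101 genes did; the measure separates these groups too.

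Among promoter and enhancer binding members, 8 of 14 listed genes were measured, and 3 were higher in bovine cells, 0 were lower and 5 did not pass (37.5%, against the 49.2% of all 9155 named genes and 58% of the brighter ones). The 8 differences were positive (42.9% of all genes and 56.3% of the brighter ones were), with a median of 0.31. ZNF362, the close paralogue of the A-rich DNA binder ZNF384, read 7.73, 7.81, 7.96, 7.71 and 7.88 on bovine arrays and 6.59, 6.79, 7.01, 6.93 and 7.01 with vehicle. Its groups lay well apart, with a difference of 0.95 (SE 0.0886, adjusted p = 3.93e-05). ZNF384 itself read 6.40, 6.34, 6.36, 6.58 and 6.12 on bovine arrays and 5.92, 6.01, 6.14, 6.04 and 6.04 with vehicle. Only the lowest bovine array fell within the vehicle range, and the difference was 0.33 (SE 0.0764, adjusted p = 0.0101).

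ZNF131, a BTB-domain transcription factor, read 8.73, 8.60, 8.78, 8.68 and 8.67 on bovine arrays and 8.15, 8.29, 8.42, 8.67 and 8.39 with vehicle (difference 0.31, SE 0.0871, adjusted p = 0.0226). The groups overlapped at 1 vehicle array, and the call was lost without vehicle replicate 2 (0.28, adjusted p = 0.0518), bovine replicate 1 (0.30, 0.0514) or bovine replicate 3 (0.28, 0.0505). ZNF148, a binder of GC-rich promoters, differed by 0.33 (SE 0.188, adjusted p = 0.17). ZNF143, which binds promoters of small nuclear RNA and coding genes, differed by 0.17 (SE 0.14, adjusted p = 0.307), and ZNF24, a SCAN-domain repressor of VEGFA, by 0.32 (SE 0.161, adjusted p = 0.125). In all 3 genes the groups overlapped.

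Of 16 listed genes for RNA, splicing, ribosome and ubiquitin functions 8 were measured, all with a mean of 5 or more; 4 were higher in bovine cells, 1 was lower and 3 did not pass. The share that passed, 62.5%, was close to the 58% of all genes at that brightness. ZNF326, a subunit of the DBIRD complex that couples RNA polymerase II elongation to splicing, read 9.09, 8.95, 9.18, 9.08 and 9.01 on bovine arrays and 8.41, 8.15, 8.38, 8.64 and 8.42 with vehicle (difference 0.66, SE 0.0826, adjusted p = 0.000273). ZNF830, a spliceosome-associated protein, read 7.54, 7.64, 7.50, 7.51 and 7.63 against 7.25, 7.28, 7.46, 7.17 and 7.38 (difference 0.26, SE 0.0564, adjusted p = 0.00779). The groups of both genes were separate, by a wide margin for ZNF326 and a narrow one for ZNF830.

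ZNF330 read 7.29, 7.18, 7.20, 7.28 and 7.32 on bovine arrays, above all vehicle arrays given earlier (difference 0.73, SE 0.163, adjusted p = 0.00861). Its bovine arrays were tight, with an SD of 0.059, while the vehicle SD was 0.381. ZNF207 read 5.81, 6.34, 5.85, 6.04 and 6.32 on bovine arrays, also above all vehicle arrays (difference 0.54, SE 0.119, adjusted p = 0.00846). The gene that was lower was ZNF706, at 10.40, 10.59, 10.37, 10.55 and 10.59 on bovine arrays and 10.66, 10.79, 10.80, 10.65 and 10.59 with vehicle (difference -0.20, SE 0.0609, adjusted p = 0.0284). The groups did not overlap but met at 10.59, and the call was lost without vehicle replicate 2 (adjusted p = 0.0623), vehicle replicate 3 (0.0523), bovine replicate 1 (0.0653) or bovine replicate 3 (0.0576).

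The 3 remaining members of that group serve RNA silencing and the large ribosomal subunit. ZNF622, which acts in maturation of the subunit, differed by 0.0065 (SE 0.136, adjusted p = 0.971) and ZNF593, which acts in its export from the nucleus, by -0.11 (SE 0.0464, adjusted p = 0.0772). ZNF638 is given above. The 3 measured members of the cell cycle and genome stability list, of 7 listed, were ZNF207 and ZNF830, both higher in bovine cells, and ZNF668, a regulator of p53, which did not pass (-0.17, SE 0.134, adjusted p = 0.292). The share that passed, 66.7% of 3 genes, was close to the 58% of all genes at that brightness.

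The largest positive difference among the 37 genes was in ZNF608, the paralogue of the transcriptional regulator ZNF609. It read 7.58, 7.24, 7.37, 7.50 and 7.48 on bovine arrays, 5.65, 5.46, 5.92, 6.23 and 6.09 with vehicle and 6.26, 6.001, 5.91, 6.26 and 6.23 with GW9662. Every bovine array lay well above every ovine array, with a difference from vehicle of 1.57 (SE 0.145, adjusted p = 3.82e-05). The next was ZNF292, a gene with many fingers known as a candidate tumour suppressor, at 6.12, 6.42, 6.06, 6.02 and 6.48 on bovine arrays and 4.17, 4.91, 5.56, 5.36 and 5.00 with vehicle. The groups were separate though the vehicle arrays were widely spread (SD 0.532), and the difference was 1.22 (SE 0.243, adjusted p = 0.00469). With the 3′ minus 5′ measure in the model that of ZNF292 turned to -0.43 (adjusted p = 0.526).

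The largest negative difference was in ZNF572, at 5.64, 5.29, 5.71, 5.35 and 5.49 on bovine arrays, 6.98, 6.86, 7.24, 6.62 and 7.24 with vehicle and 7.11, 7.46, 7.15, 7.54 and 7.11 with GW9662. No bovine array came near an ovine one, and the difference from vehicle was -1.50 (SE 0.135, adjusted p = 3.16e-05). Both ovine groups read higher than the bovine group for this gene. The match of its probes to sheep RNA was not tested. ZNF462, a many-fingered protein of chromatin and neural development, read 6.47, 6.61, 6.55, 6.77 and 6.74 on bovine arrays and 6.95, 7.01, 7.38, 7.22 and 7.10 with vehicle (difference -0.50, SE 0.0908, adjusted p = 0.00269). Of its 3 dimmer probe sets, 1 also passed in that direction (-0.56, SE 0.189, adjusted p = 0.04), and the other 2, both under 3, did not (-0.15 with adjusted p = 0.256, and -0.011 with adjusted p = 0.287). The dimmer probe sets of ZNF292 (0.036, adjusted p = 0.448) and ZNF330 (0.095, adjusted p = 0.227) did not pass in this comparison. Nor did those of ZNF317 (-0.023 with adjusted p = 0.0714, and -0.018 with adjusted p = 0.105).

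ZNF317, a KRAB zinc finger, read 6.08, 5.83, 6.01, 5.99 and 6.05 on bovine arrays and 6.24, 6.46, 6.36, 6.30 and 6.48 with vehicle. The groups were separate, with a difference of -0.38 (SE 0.0605, adjusted p = 0.00133). ZNF677, another KRAB zinc finger, was also called lower, though its groups overlapped (5.21 to 5.80 bovine and 5.53 to 6.25 vehicle). Its difference was -0.46 (SE 0.161, adjusted p = 0.0434), and the call held in only 3 of 10 fits that left out an array. It was lost without vehicle replicates 2 (adjusted p = 0.0877), 4 (0.0861) or 5 (0.077) and without bovine replicates 1 (0.0939), 2 (0.0706), 4 (0.065) or 5 (0.0903). ZNF444, a SCAN-domain protein known for binding the promoter of the endothelial scavenger receptor SREC, had nearly level values, with means of 5.04 in bovine, 4.99 in vehicle and 5.01 in GW9662 arrays (bovine minus vehicle 0.052, SE 0.0445, adjusted p = 0.341). ZNF677 and ZNF444 were chosen after their values were seen.

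**Figure D4:**
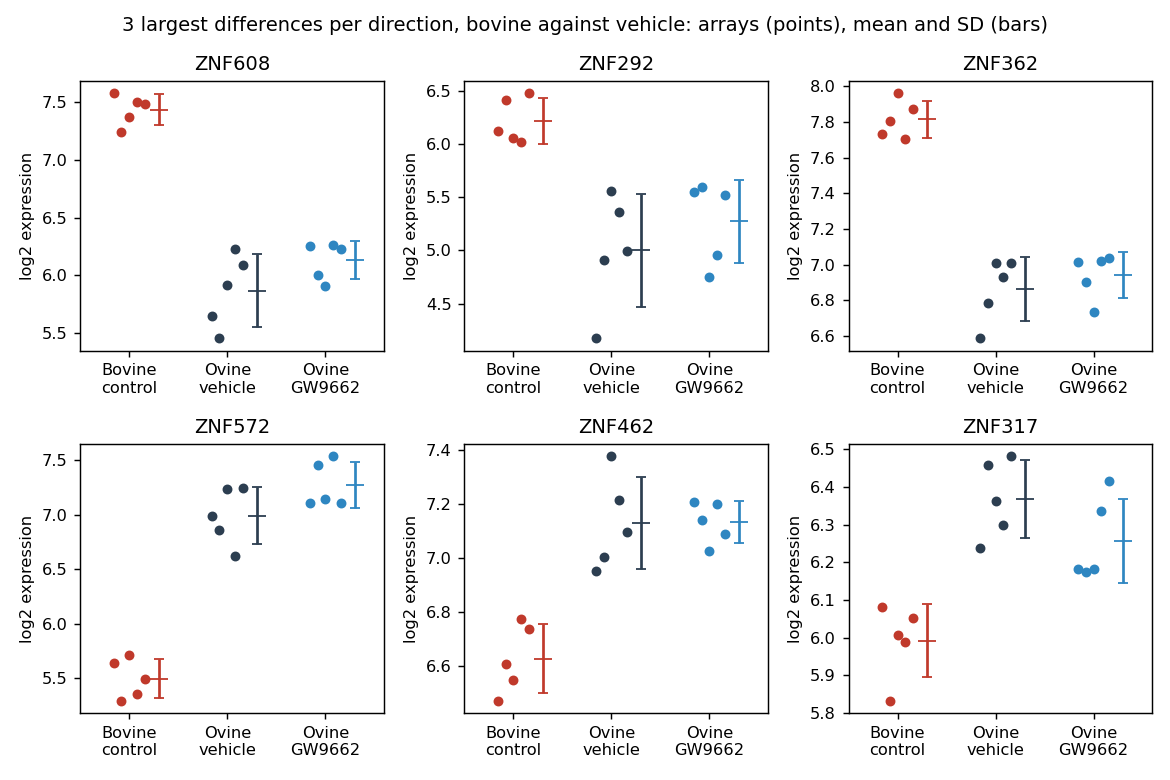
Log2 values on each array of ZNF608, ZNF292, ZNF362, ZNF572, ZNF462 and ZNF317 by group, with points for arrays and bars for the mean and SD of 5. Bovine arrays lie above all vehicle arrays in ZNF608, ZNF292 and ZNF362 and below all of them in ZNF572, ZNF462 and ZNF317, and the GW9662 arrays lie on the vehicle side in each.

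The bovine arrays can also be set against the GW9662 arrays, a comparison that shares the bovine arrays with the one above. There 16 of the 37 genes passed, 9 higher and 7 lower in bovine cells (43.2%, against 60.2% of the 5101 genes, 33% higher and 27.2% lower), and 11 of the 37 passed in both comparisons in the same direction, as did 2514 of the 5101 genes. The 3 that passed only against vehicle were ZNF207 (0.54 against vehicle and 0.23, adjusted p = 0.28, against GW9662), ZNF830 (0.26 and 0.17, adjusted p = 0.0503) and ZNF706 (-0.20 and -0.13, adjusted p = 0.0938). The 5 that passed only against GW9662 were ZNF746 (0.093 against vehicle with adjusted p = 0.0741, and 0.33 against GW9662 with adjusted p = 0.000405), ZNF181 (-0.087 and -0.52, adjusted p = 0.0138), ZNF567 (-0.038 and -0.33, adjusted p = 0.0175), ZNF3 (0.37 and 0.45, adjusted p = 0.0142) and ZNF45 (-0.35 and -0.42, adjusted p = 0.0219). The difference between these comparisons is that of GW9662 against vehicle, in which, of these 8 genes, only ZNF746 passed.

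**Figure D5:**
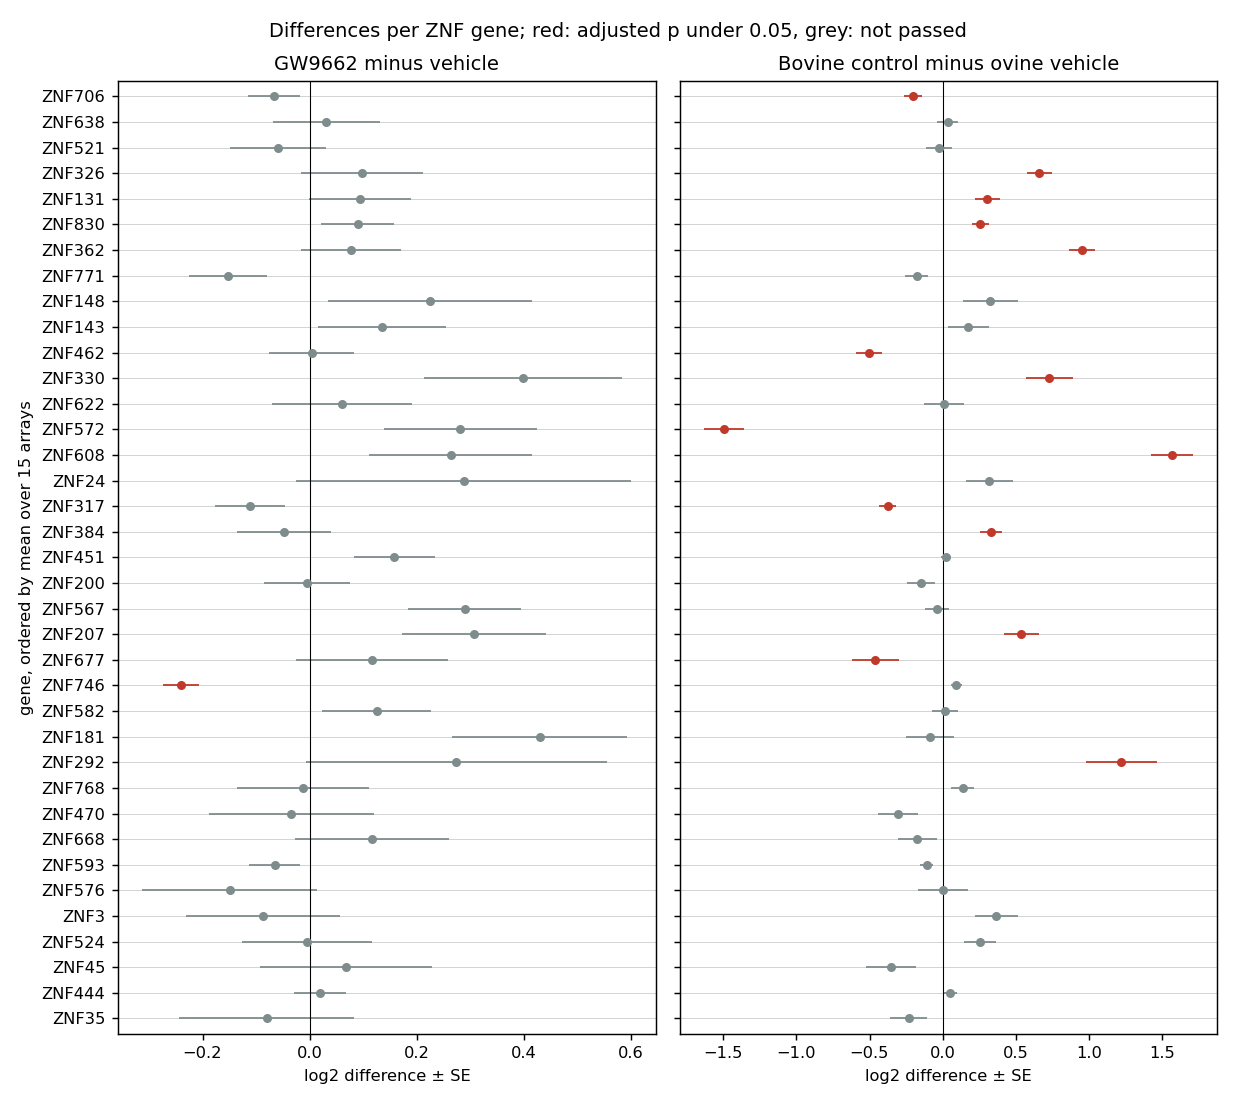
Log2 difference of each of the 37 brighter ZNF genes with its standard error, for GW9662 minus vehicle and for bovine minus vehicle, with genes past the adjusted limit of 0.05 in red. For GW9662 the differences lie between -0.24 and 0.43 and ZNF746 alone is red, while between species they run from -1.50 to 1.57 and 14 are red.

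Among the 5 measured members of co-repressor and chromatin complexes, of 14 listed, only ZNF521 was bright. Against vehicle 1 was higher in bovine cells, ZNF644, a partner of the histone methyltransferases G9a and GLP (0.35, SE 0.125, adjusted p = 0.0466). ZNF609 was lower (-0.33, SE 0.11, adjusted p = 0.0373), as was ZNF652 by -0.051 at a level near the floor. So 3 of the 5 passed (60%), against 49.2% of all 9155 named genes and 38.3% of those under 5. Of 12 listed KRAB genes with known targets 5 were measured, of which only ZNF746 was bright. None passed between species (limma, with 1 at an unadjusted p under 0.05), against those same shares. With GW9662 none of the measured members of these 5 role lists passed other than ZNF746. ZNF644 had the second largest difference of all 82 genes with GW9662, 0.42 from a mean of 3.38 to one of 3.81 (SE 0.172, adjusted p = 0.222), and its groups overlapped.

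Over all 82 genes, 1 passed with GW9662 (1.22%, against 0.218% of 9155 genes) and 26 passed between species, 14 higher and 12 lower in bovine cells (31.7%, against 49.2%, with 21.9% higher and 27.4% lower). Leaving out vehicle replicate 2 or bovine replicate 1 brought the latter count to 15 in each case. Of the 45 genes under 5, 12 passed between species, 5 higher and 7 lower (26.7%, against 38.3% of all named genes under 5), and 0 passed with GW9662 (limma; 1 higher and 4 lower at an unadjusted p under 0.05). The dim gene with the largest difference, ZNF177, a KRAB zinc finger chosen here after its values were seen, read 3.19, 3.18, 2.89, 2.65 and 3.20 on bovine arrays, 4.39, 4.36, 4.41, 4.23 and 3.74 with vehicle and 4.14, 4.44, 4.17, 4.35 and 4.13 with GW9662. The bovine arrays lay below every ovine array, with a difference from vehicle of -1.21 (SE 0.157, adjusted p = 0.000361). ZNF79 (0.54, adjusted p = 0.0229) and ZNF184 (0.40, adjusted p = 0.0428), both of the KRAB type and also chosen after their values were seen, were higher in bovine cells.

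The 20 genes under 3 lay near the floor of the values, where expression and its absence read alike. Between species 6 of them passed, 1 higher and 5 lower (30%, against 37.7% of all named genes under 3), with differences as small as -0.033 for ZNF821 (adjusted p = 0.0455). With GW9662 5 of the 20 differences were positive (25%, against 9.43% of all named genes under 3), with a median of -0.030 (-0.021), and ZNF397, ZNF821, ZNF414 and ZNF652 did not overlap between groups (20%, against 27.1%). The lower quartile of each array moved the same way: it was 2.41 to 2.461 on vehicle arrays, 2.394 to 2.411 on GW9662 arrays and 2.392 to 2.4 on bovine arrays. Its part in these small differences was not tested.

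In the sheep gene table of RefSeq (assembly ARS-UI_Ramb_v3.0), 69 of the 82 symbols had an entry. Of those, 21 passed between species, 13 higher and 8 lower in bovine cells. Of the 13 without an entry under the same symbol, 5 passed, 1 higher and 4 lower, with ZNF177 and ZNF677 among the latter. Over all 9155 named genes 49.2% passed. Zinc finger genes often lie in clusters that arose by duplication, and 4 pairs of measured genes were direct neighbours in that table: ZNF777 and ZNF746, ZNF48 and ZNF771, ZNF274 and ZNF329, and ZNF197 and ZNF35. Closely related zinc finger genes can share sequence, and whether any probe set also binds a relative was not tested.

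Replicate spread limits the precision of either comparison. The pooled SD within groups had a median of 0.177 over the 37 brighter genes, from 0.065 for ZNF593 to 0.461 for ZNF24, against 0.124 over the 5101 genes. These medians were not matched for level: 28 of the 37 lay between 5 and 7, as did 1666 of the 5101. The part of level in this contrast was not tested. ZNF24 read 5.93, 6.20, 6.55, 6.40 and 6.28 with vehicle and 6.95, 7.22, 5.41, 6.45 and 6.78 with GW9662. Its treated arrays thus lay both above and below the whole vehicle range, and the difference of 0.29 (SE 0.313) did not pass (adjusted p = 0.532).

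The co-repressor machinery on which KRAB zinc fingers depend was measured for 19 of 25 listed genes. With GW9662 none passed (limma; 1 at an unadjusted p under 0.05), with a median difference of 0.087. Between species 10 were higher in bovine cells and 2 lower, or 63.2%. Of the 19, 16 had a mean of 5 or more, where 58% of genes passed, and the share over all 9155 genes was 49.2%. TRIM28, the scaffold that KRAB domains bind, had a mean of 9.58 ± 0.074 in bovine, 8.47 ± 0.148 in vehicle and 8.44 ± 0.168 in GW9662 arrays (SD, n = 5). The bovine and vehicle arrays did not overlap, with a difference of 1.11 (SE 0.0704, adjusted p = 3.07e-06), while the GW9662 difference was -0.026 (SE 0.0953, adjusted p = 0.862). SETDB1, the methyltransferase it recruits, differed by 0.27 between species (SE 0.186, adjusted p = 0.233), and SUV39H1, another histone H3 methyltransferase, by 1.31 (SE 0.119, adjusted p = 3.2e-05). TASOR, a HUSH subunit, was lower in bovine cells by -0.40 (SE 0.0646, adjusted p = 0.00144), as was the remodeller SMARCAD1 (-0.47, SE 0.132, adjusted p = 0.0219).

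Zinc finger transcription factors named by other roots, such as the KLF, EGR and SP families, were measured for 47 of 73 listed genes. With GW9662 none passed (limma; 5 higher and 1 lower at an unadjusted p under 0.05). Between species 13 were higher in bovine cells and 8 lower (44.7%, against the same 49.2%; 24 of the 47 had a mean of 5 or more). KLF4, a shear-responsive regulator of endothelial quiescence, was lower in bovine cells by -3.16 (SE 0.0772, adjusted p = 5.14e-09), which exceeds in size the differences of all 82 ZNF genes, and KLF11 was higher by 1.28 (SE 0.119, adjusted p = 3.8e-05).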

How the data were processed

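The deposited values are log2 expression values, which the authors made with RMA (background correction, quantile normalisation and probe summary) according to the submitters' processing notes; the version is not given in the sources used here. They ran from 0.8994 to 14.07 over 24128 probe sets and carry no measure of signal over background. After the 112 control probe sets were set aside, 24016 remained. The platform annotation pairs 13292 of them with a single symbol, 86 with several and 10638 with none, and only the first kind was named. A gene's probe set brightest over the 15 arrays was used; 18 of the 82 ZNF genes had several, up to 4, and in none did a second one reach 5.

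The tests were run with limma 3.58.1 (R 4.3.3), by lmFit and eBayes on the 10 arrays of each comparison, and p-values were adjusted over the 24016 probe sets by Benjamini and Hochberg, with calls made below 0.05. The quality measure was tested by exact permutation. The fit was also run on simulated data with independent noise for each probe set. That simulation held no quality difference between arrays, so it checked the code and not the calls made here. The members, lists and tests were chosen with earlier results of these data known. Named genes were the 10 brightest, those called with GW9662 and the 6 per direction of smallest p, up to 8 per direction of largest called difference between species without overlap, and role list members of smallest p (up to 3); others stand in a list or are said to be chosen later. Alternatives concerned scaling, dim probe sets, the variance model, weights, the arrays fitted, the replicate block, the choice of probe set, RNA quality, the brightness limit, the symbol rule and a fold limit.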

Additional observations from a re-analysis of the deposited data

Results flagged for a closer look

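In 75 groups of 5 arrays (23 named ZNF genes, the mean over the brighter ZNF genes and the 3′ minus 5′ measure, each in 3 groups) 4 held an array whose gap to its nearest neighbour exceeded 0.71 of the group's range, Dixon's limit for 5, which chance exceeds in about 1 group in 20. ZNF746 held such an array in both ovine groups: vehicle replicate 4 read 5.926, with the next at 5.854, and GW9662 replicate 1 read 5.497, with the next at 5.63. In ZNF207, GW9662 replicate 4 read 5.33, with the next at 5.903, and in ZNF593, vehicle replicate 5 read 5.412, with the next at 5.206.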

How the results depend on the processing

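The count of 1 brighter ZNF gene past the threshold with GW9662 became 0 when arrays were quantile-normalised again (6 genes below 0.05 before adjustment), when dim probe sets were filtered out (5 such genes), with eBayes set to trend and robust (4), with array weights (3), the 3′ minus 5′ measure as a covariate (6) and a brightness limit of 6 (0 of 20 genes), and ran from 0 to 1 when each array was left out. Replicate numbers did not pair the arrays: same-numbered arrays deviated with correlations of -0.194 to 0.172 in the GW9662 comparison and -0.0968 to 0.0937 between species, and no array correlated best with its own number. With the replicate block the GW9662 count was 0 (5 at an unadjusted p) and that between species 12. The count of 14 between species became 1 with the covariate and 0 when tested against a log2 difference of 1 (2 at an unadjusted p), and ran from 11 to 17 over left-out arrays. The medians moved with the covariate, to -0.096 for GW9662 and -0.21 between species; over left-out arrays they ran from 0.0066 to 0.103 and from 0.0070 to 0.0652. Over all 82 genes the count of 26 between species was 16 with centred arrays, 14 with the replicate block, 15 with the dim filter and 1 with the covariate. The cause of these changes was not tested. The counts of the co-repressor and other zinc finger lists stayed within 1.5 times under centring, the alternative run for them.

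Differences that changed sign were, with GW9662, ZNF638 under quantile normalisation (-0.0061), array weights (-0.030), the covariate (-0.12) and without vehicle replicate 1 (-0.033) or GW9662 replicate 4 (-0.030), ZNF576 with the covariate (0.14) and without vehicle replicate 1 (0.0066), and with the covariate ZNF131 (-0.17), ZNF362 (-0.20), ZNF143 (-0.20) and ZNF24 (-0.87). Between species they were ZNF638 under array weights (-0.0031), the covariate (-0.35) and without vehicle replicate 1 (-0.029), ZNF521 with centring (0.0089), without vehicle replicate 3 (0.0087), bovine replicate 1 (0.014) or bovine replicate 4 (0.0049) and against GW9662 arrays (0.034), ZNF746 under quantile normalisation (-0.0083), and with the covariate ZNF148 (-0.028), ZNF143 (-0.66) and ZNF292 (-0.43). Of these only ZNF292 had passed the test. Over left-out arrays the differences with GW9662 ran from -0.033 to 0.091 for ZNF638 and from -0.23 to 0.0066 for ZNF576, and those between species from -0.029 to 0.076 for ZNF638 and from -0.091 to 0.014 for ZNF521. Of 439 refits of 22 genes with GW9662, 413 kept direction and side of the threshold, as did 385 of 440 refits of 21 genes between species. Values under 3 are near the floor, so differences there are limited by signal over background, which the deposited values do not record.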

Other observations

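The 5 genes whose symbols carry a letter after the digits, left out of the 82, were also measured. ZNF705A was higher in bovine than in vehicle arrays, with no overlap between groups, by 0.49 (SE 0.0946, adjusted p = 0.00409, means 4.76 and 4.27), and ZNF385B was lower by -0.16 (SE 0.0476, adjusted p = 0.0248). ZNF75D, at means of 7.62 and 7.41 (difference 0.21, SE 0.0806), ZNF354A (0.25, SE 0.151) and ZNF385A (0.23, SE 0.136) did not pass, with adjusted p-values of 0.0575, 0.187 and 0.178 in that order. With GW9662 none of the 5 passed (limma; ZNF385B alone had an unadjusted p under 0.05, with a difference of -0.13, SE 0.0538).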
